A study of Mus musculus with 11 samples.

Results

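Of 387 protein-coding mouse genes on chromosomes 1 to 19 whose symbol is Zfp followed by a number (1 further gene of this name was left out by the rule), 76 had at least 1 bp of their body inside a unified H3K9me3 peak. In all, 2513 of 20665 protein-coding genes on these chromosomes had such a peak (12.2%), the other 2437 bearing other names. The members were chosen by the position of the authors' peaks, so coverage is given as a description without a test. Methylation was not part of the choice, but the H3K9me3 calls come from libraries whose peaks entered the unified list, so calls are more numerous inside peaks by construction.

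All samples came from E14, an established mouse embryonic stem cell line of 129/Ola background grown in serum with leukemia inhibitory factor, without a genetic change or treatment named in the labels. CUT&Tag-BS uses an antibody and a protein A-Tn5 transposase to cut out fragments around a histone mark and then reads cytosine methylation on those fragments after bisulfite conversion. The values below come from H3K9me3 run 2 (75-bp reads, 6355757 CpG calls), with H3K9me3 run 1 (35-bp reads, 2012835 calls), H3K4me1 run 2 (9690770 calls) and H3K27me3 (37177077 calls) beside it, each from 250000 cells. The H3K9me3 library without bisulfite, also from 250000 cells, gave a peak list only. Runs 1 and 2 of a mark were treated as repeat sequencing of 1 library, so no value has a biological replicate, and a level between 0 and 100% cannot tell apart cells, alleles or molecules that differ. The CpG-rich ends of the pluripotency genes Pou5f1 and Sox2 had 0 and 0.69% methylation in H3K4me1 run 2. At the gene end with more CpGs, the median over 12187 protein-coding genes in this library was 4.55%, and 87.1% were under 20%. Low levels at these 2 genes therefore cannot check the cell label.

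Most numbered Zfp genes encode C2H2 zinc finger proteins, many with a KRAB domain, which bind DNA of transposable elements or imprinted loci and recruit TRIM28 and the H3K9 methyltransferase SETDB1. The genes lie in tandem arrays that grew by duplication, and their own bodies, above all the exons that encode the fingers, are known to carry H3K9me3. In embryonic stem cells H3K9me3 is mostly found with DNA methylation, while active CpG-rich promoters are unmethylated.

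The contrast within this gene group is visible at the sequences just before the transcription start. The 250 bases before a listed start are shown for 7 members whose start lies at an H3K9me3 peak, because these span the range from unmethylated to methylated (RefSeq promoter table, GRCm38.p6, 5′ to 3′ on the gene's strand, capitals mark CG dinucleotides, the cytosines whose methylation was read).
Zfp932, chr5:109996260-109996509, + strand: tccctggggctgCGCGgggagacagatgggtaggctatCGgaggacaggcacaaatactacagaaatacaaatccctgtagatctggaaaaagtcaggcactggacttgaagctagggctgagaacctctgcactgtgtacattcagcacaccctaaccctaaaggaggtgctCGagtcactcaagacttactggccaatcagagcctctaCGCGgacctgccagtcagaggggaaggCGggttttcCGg
Zfp808, chr13:62129640-62129889, + strand: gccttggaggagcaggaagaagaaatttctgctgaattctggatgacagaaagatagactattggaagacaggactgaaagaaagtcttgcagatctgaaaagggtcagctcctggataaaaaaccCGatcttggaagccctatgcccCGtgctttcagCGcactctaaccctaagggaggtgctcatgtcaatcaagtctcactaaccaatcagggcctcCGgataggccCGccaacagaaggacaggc
Zfp996, chr12:18387241-18387490, + strand: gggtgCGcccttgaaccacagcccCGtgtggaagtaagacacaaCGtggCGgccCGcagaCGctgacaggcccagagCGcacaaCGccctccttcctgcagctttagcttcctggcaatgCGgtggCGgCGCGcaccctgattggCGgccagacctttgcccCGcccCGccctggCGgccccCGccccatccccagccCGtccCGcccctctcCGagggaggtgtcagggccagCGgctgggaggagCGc
Zfp790, chr7:29815822-29816071, + strand: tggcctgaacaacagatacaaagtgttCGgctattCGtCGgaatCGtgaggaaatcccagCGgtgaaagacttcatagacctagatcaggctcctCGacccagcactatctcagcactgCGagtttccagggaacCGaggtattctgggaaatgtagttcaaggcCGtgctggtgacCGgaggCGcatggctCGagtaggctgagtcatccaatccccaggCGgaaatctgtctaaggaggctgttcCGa
Zfp775, chr6:48601757-48602006, + strand: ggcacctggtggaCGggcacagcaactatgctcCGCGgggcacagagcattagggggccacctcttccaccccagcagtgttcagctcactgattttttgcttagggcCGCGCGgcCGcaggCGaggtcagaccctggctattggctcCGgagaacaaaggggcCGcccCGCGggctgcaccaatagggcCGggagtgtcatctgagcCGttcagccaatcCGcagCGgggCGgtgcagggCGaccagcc
Zfp629, chr7:127615273-127615522, - strand: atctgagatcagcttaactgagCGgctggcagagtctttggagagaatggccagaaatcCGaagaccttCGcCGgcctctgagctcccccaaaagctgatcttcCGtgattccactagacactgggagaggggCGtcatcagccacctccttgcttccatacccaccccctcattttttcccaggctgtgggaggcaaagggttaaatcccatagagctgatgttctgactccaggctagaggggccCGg
Zfp951, chr5:104860069-104860318, - strand: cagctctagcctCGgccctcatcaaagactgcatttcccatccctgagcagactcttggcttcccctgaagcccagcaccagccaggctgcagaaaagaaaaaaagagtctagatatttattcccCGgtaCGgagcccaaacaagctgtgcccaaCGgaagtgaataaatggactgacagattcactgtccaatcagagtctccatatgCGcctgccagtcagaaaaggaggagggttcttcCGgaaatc
In H3K9me3 run 2, 0 of 62 calls in the printed Zfp932 bases and 0 of 46 in those of Zfp808 were methylated. Of the 46 calls, 9 lay at the last printed base of Zfp808, a CpG cytosine in lowercase because its G lies beyond the stretch. The Zfp996 bases, with 22 CGs, had 1.27% of 79 calls methylated, and those of Zfp790 had 9.21% of 152 calls. The Zfp775 bases had 27.6% of 76 calls and the Zfp629 bases 75.0% of 24 calls. At Zfp951, all 11 of 11 calls at its 6 CGs were methylated, with 1 to 3 calls per CG. Promoter sequences were found for 65 members, and 259220 of 259220 CGs of that table lay at a CpG position of the count table. The letters CCAATCAG, on either strand and including the shorter CCAAT, were chosen with these sequences in view. They occur in 13 of 65 member promoter windows of 300 bases (20%), among them those of Zfp932, Zfp808, Zfp996 and Zfp951, in 38 of 259 windows of numbered Zfp genes without a peak (14.7%), in 4.77% of 1906 windows of other covered genes and in 5.06% of all 16457. The shorter CCAAT is in 50.8% of member windows and 39.1% of all windows.

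How much of a gene was covered differed widely. The covered share of the body had a median of 9.53%, was under 10% in 39 members and over 50% in 10, against 86 of 2437 other covered genes (3.53%) over 50%. The most covered were Zfp629 (chr7:127607028-127615785, 99.4%), Zfp575 (chr7:24583838-24587840, 96.1%), Zfp808 (chr13:62129857-62173938, 95.7%) and Zfp977 (chr7:42579397-42592545, 87.8%). Just inside the rule, Zfp414 had 30 bp covered, Zfp280d 300 bp, Zfp971 335 bp and Zfp882 358 bp. Just outside it, the nearest peak lay 368 bp from Zfp692, 465 bp from Zfp964 and 1291 bp from Zfp771. Peaks over members numbered 112, with a median width of 2329 bp against 1588 bp for all 20576 unified peaks, and the widest, 27854 bp, lay over Zfp808. The 2 medians are not matched, since a wide peak meets a gene body more easily. The width of peaks over the other covered genes is not given here. In the separate lists, 72 members were covered in run 2, 58 in run 1 and 55 in the control without bisulfite, 49 in all 3 and 12 in run 2 alone. Member genes were shorter (median 24308.5 bp) than the other covered genes (86737 bp) and longer than the 311 numbered Zfp genes without a peak (16518 bp).

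The position of the covered bases varied between members. When the 65 bodies with a known strand were split into 3 equal parts, the part at the 3′ end held most covered bases in 29 members (44.6%), the middle part in 17 (26.2%) and the part at the 5′ end in 13 (20%). In 1906 other covered genes these shares were 33.7, 29.4 and 31.3%. A window of 1000 bp on each side of a listed start touched a peak in 13 of 65 members (20%), against 246 of 1906 other covered genes (12.9%). Since peaks chose both sets, neither share was tested.

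Covered parts of the genes were highly methylated, and the starts were not. Summed over members in H3K9me3 run 2, 82.7% of 18703 calls in peaks were methylated (Wilson 95% interval 82.1 to 83.2%). Intervals here cover counting error only, since calls on 1 fragment and amplified copies are not independent. In the window of 1000 bp on each side of the gene end with more CpGs, named the denser end here and chosen blind to methylation, 31.2% of 3430 calls were methylated (29.7 to 32.8%), and the median of 33 genes with at least 20 calls was 12.5%. In the rest of the body, outside peaks and that window, the level was 78.2% of 10971 calls (77.4 to 79.0%). Run 1 gave 80.9, 29.0 and 79.4% for the same 3 parts. The denser end had 0.751 calls per CpG, against 3.97 in peaks and 0.333 in the rest, and 14 members had no call there.

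The denser end is not always the start. A listed start lay within 1000 bp of it in 54 of 65 members, and in 11, among them Zfp936, Zfp787 and Zfp790, it lay further away. At the listed starts themselves, 27% of 4094 calls were methylated, and the median of 35 genes was 5.34%. Of these 35, 25 were under 20%, 9 between 20 and 80%, and Zfp951 was above. At the low extreme, the denser ends of Zfp277, Zfp658 and Zfp267, which are also their starts, had 0% of 43, 0% of 43 and 0% of 31 calls methylated (3 counts would be 6.98, 6.98 and 9.68%). The 4 highest denser ends were those of Zfp936 (94.3% of 105 calls), Zfp951 (91.1% of 56), Zfp787 (80.8% of 208) and Zfp790 (69.4% of 49), and of these Zfp951 alone has a listed start within the window. Outside the windows at ends and starts, peaks had 87.3% of 16684 calls methylated (86.8 to 87.8%) and the rest of the body 82.2% of 10267 (81.4 to 82.9%).

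**Figure D1:**
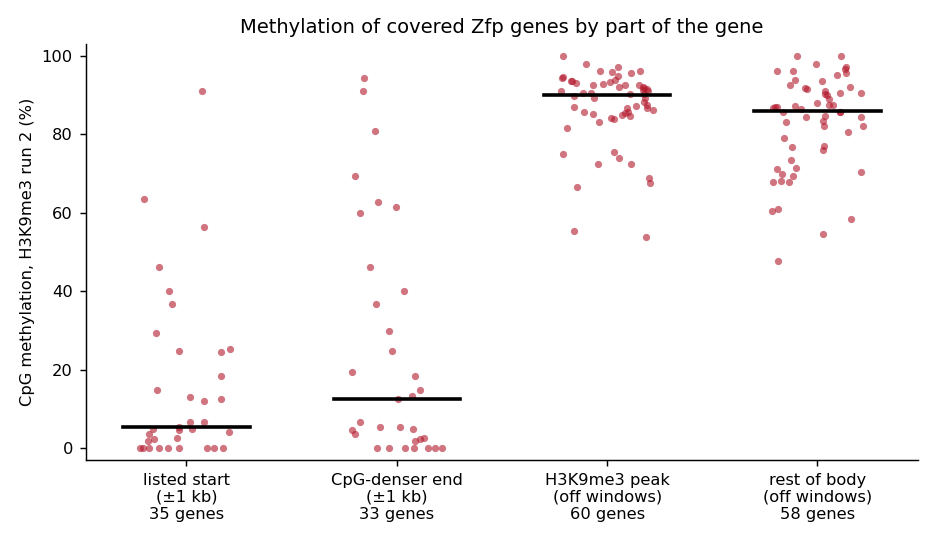
Each point is 1 member with at least 20 calls in that part, the y axis is the methylation level in H3K9me3 run 2 in percent, and black bars are medians. Points at listed starts and denser ends gather near 0% with a tail up to 91.1 and 94.3%, whereas peaks and the rest of the body, outside those windows, lie between 47.6 and 100%.

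Per gene, the difference between denser end and rest of body was tested with Fisher's exact test (two-sided) on the calls of this 1 library, with Benjamini-Hochberg adjustment over all protein-coding genes with at least 20 calls in each part and a threshold of 0.05, so it compares calls and not replicates. Of 25 members tested, 20 were lower at the end and 2 higher, with a median difference of -70.1 percentage points. Among all 1328 genes tested, 79.6% were lower and 4.37% higher, with a median of -70.1, so the members were close to the background. The 2 higher members were Zfp787 and Zfp936, whose windows lie 24476 and 63424 bp from a listed start. With windows at listed starts, 24 of 26 members were lower and 0 higher (85% lower and 2.5% higher of 1159 genes). Against the peak outside the window, 24 of 26 members were lower at the denser end and 1, Zfp790, higher, with a median of -75.1 percentage points (75.5% lower and 3.75% higher of 506 genes). With windows at listed starts, 28 of 29 members were lower than their peak and 0 higher (81.3% lower and 1.96% higher of 459 genes), and the Zfp790 difference was -46.6 percentage points.

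Methylation rose with distance from the start over a short range. Within 250 bp of a listed start, 9.03% of 1085 calls outside peaks and 25.5% of 1714 calls inside peaks were methylated in H3K9me3 run 2. From 500 to 1000 bp the levels were 39.4% of 221 calls and 78.3% of 263 calls, and from 2000 to 5000 bp 88.2% of 704 and 87.0% of 1775. Inside peaks the level was higher than outside up to 2000 bp, with intervals that did not overlap, not from 2000 to 5000 bp, and again from 5000 to 20000 bp (86.7 and 77.0%). H3K4me1 run 2, whose fragments come from chromatin with the mark of enhancers and promoter flanks, gave 2.96 and 5.37% within 250 bp of the same starts. From 2000 to 5000 bp it gave 58.5% of 621 calls outside peaks and 29.8% of 570 calls inside, the latter from 12 genes. The peak of Zfp553, which begins 2365 bp from its denser end, had 466 H3K4me1 calls over its whole width, 19.7% of them methylated. How many of the 570 calls inside peaks came from this gene was not counted.

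**Figure D2:**
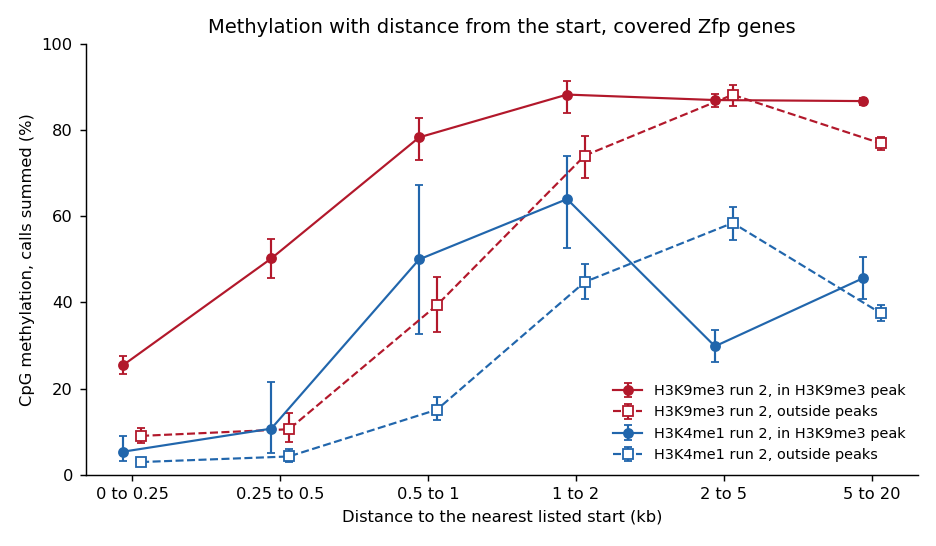
Methylation in percent (y axis, calls summed over 65 members with a listed start, bars are Wilson 95% intervals) by distance to the nearest listed start in kb (x axis, unequal steps), for H3K9me3 and H3K4me1 run 2, inside and outside H3K9me3 peaks. All 4 lines are lowest within 0.25 kb, where the H3K9me3 line inside peaks starts at 25.5% and the other 3 under 10%.

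The 13 members whose start lay at a peak fell into a low, a middle and 1 high case. Together they had 35.1% of 2616 calls methylated in H3K9me3 run 2 (33.2 to 36.9%) and 34.3% of 1005 calls in run 1, against 12.7% of 1478 calls at the 52 starts outside peaks. Of the 52, 22 had at least 20 calls and 19 of those were under 20%. The other covered genes had 49.4% of 27536 calls at their 246 starts at peaks, and 84 of the 216 genes with at least 20 calls were over 80%. No test was made of that difference, since genes in an array share sequence and library.

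At the low end, Zfp808, Zfp932 and Zfp996 combined an H3K9me3 peak with an almost unmethylated start. Zfp808 had 2.38% of 84 calls methylated (0.655 to 8.27%) in H3K9me3 run 2, 2.50% of 40 in run 1 and 3.53% of 85 in H3K4me1 run 2. Zfp932 (chr5:109996502-110012266), known to repress endogenous retroviruses, had 4.50% of 111 calls (1.94 to 10.1%), 4.76% of 21 and 7.02% of 57 in the same libraries. Zfp996 (chr12:18387491-18406758) had 5.34% of 131 calls (2.61 to 10.6%), 1.06% of 94 and 0% of 24. For these 3 genes the libraries of both marks gave levels under 8% with overlapping intervals. The peak at the Zfp932 start, 1006 bp wide, had 0.990% of 101 calls methylated, while the covered bases of the gene outside its start window had 89.3% of 84. Most of these lie under a long peak that begins 10916 bp into the gene, runs on past its end and had 89.9% of 1022 calls over its whole width. The start peak was found in 2 of the 3 H3K9me3 lists, and the control without bisulfite covered 0 bp of the gene body. At Zfp996 the start peak of 1424 bp had 3.51% of 114 calls, and the next peak, 8955 bp further in, 71.3% of 108. The start peak was in 3 lists and the inner one in 1. Zfp808 is covered by 2 long peaks, and 90.2% of 1226 of its peak calls outside the start window were methylated, and the start lies near the outer edge of the first of these peaks. Zfp280d (13% of 193 calls), Zfp640 (14.9% of 94) and Zfp882 (18.3% of 142) were also under 20%.

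In the middle, the start of Zfp775 (chr6:48602007-48621548) had 46.1% of 241 calls methylated (39.9 to 52.4%), that of Zfp869 29.4% of 530, that of Zfp977 40% of 105, that of Zfp790 25.3% of 221 and that of Zfp414 24.6% of 69. The 3 listed starts of Zfp629 together had 63.4% of 639 calls (59.6 to 67.0%), and run 1 gave 66.4% of 232. Within 500 bp of these starts, Zfp629 had 74 CpGs with at least 3 calls, of which 47 lay between 20 and 80%, 19 above and 8 below. Zfp775 had 44 such CpGs, with 29 between 20 and 80%. At Zfp932 all 13 such CpGs were at 0%, and at Zfp996 all 15 were under 20%. In Zfp629 and Zfp775, most single CpGs thus had middle levels themselves. At the high end stood Zfp951 (chr5:104802246-104860157) with 91.1% of 56 calls (80.7 to 96.1%) and 95.5% of 22 in run 1. It had no H3K4me1 call in the window.

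**Figure D3:**
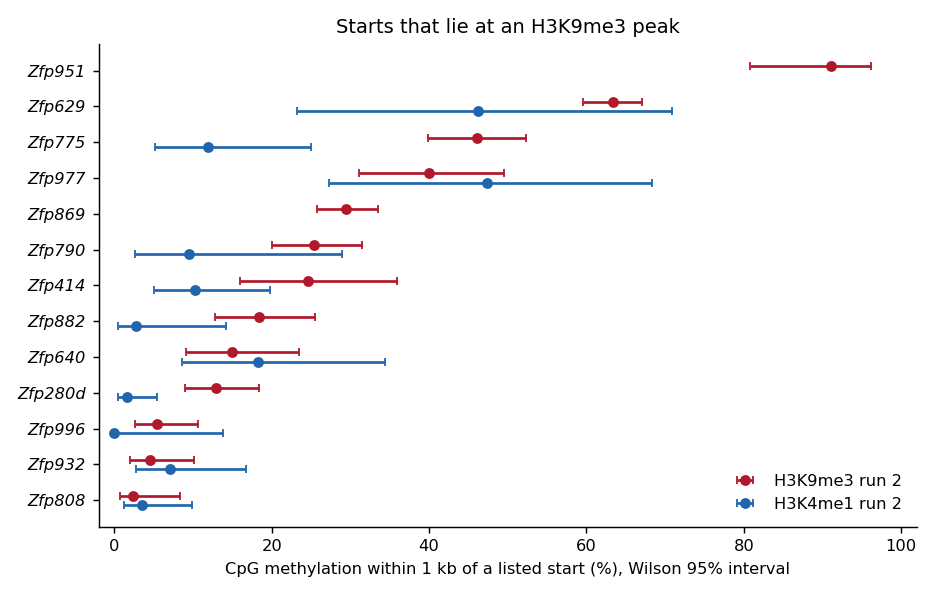
Methylation within 1000 bp of a listed start in percent (x axis, points, with Wilson 95% intervals as bars) for the 13 members with a start at an H3K9me3 peak, in H3K9me3 run 2 (red) and H3K4me1 run 2 (blue, absent for Zfp951 and Zfp869, which had no call). Zfp808 is lowest at 2.38% and Zfp951 highest at 91.1%, and at Zfp775 the 2 libraries stand apart.

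**Figure D4:**
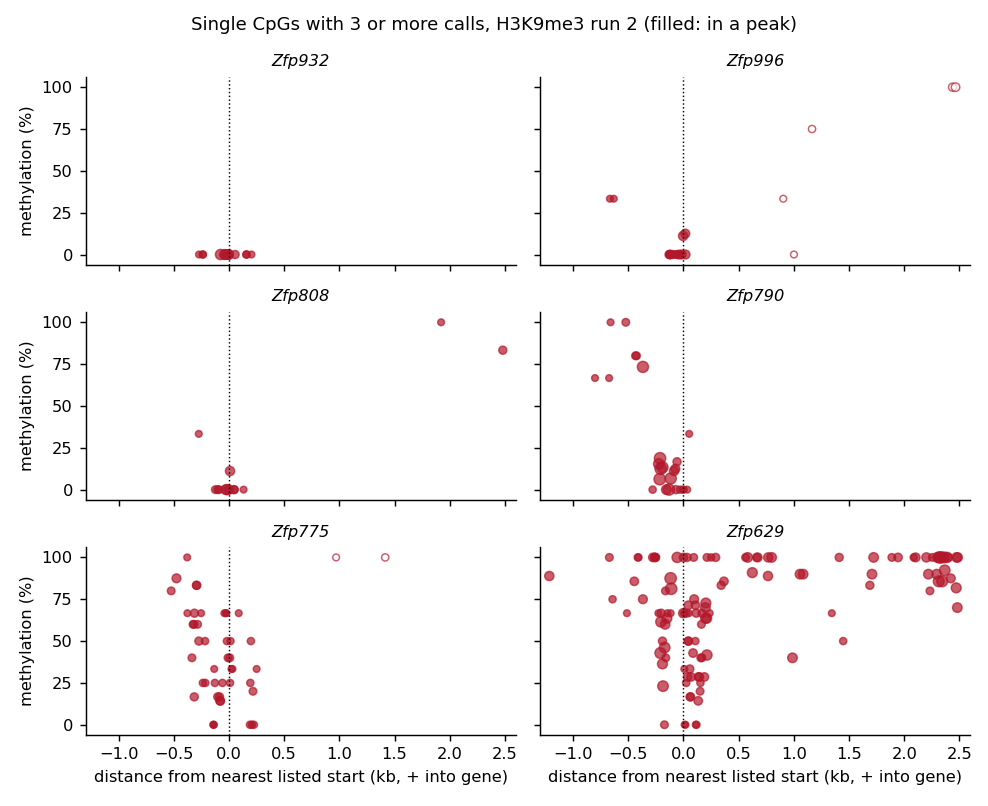
Each point is a CpG with at least 3 calls in H3K9me3 run 2 near a listed start of 6 members, by distance to the nearest listed start in kb (x axis, positive into the gene) and methylation in percent (y axis), filled inside a peak and larger with more calls. Points near the start lie at or near 0% in Zfp932, Zfp996 and Zfp808, low in Zfp790 with high points further upstream, and spread from 0 to 100% in Zfp775 and Zfp629.

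Whether the H3K9me3 fragments differed from H3K4me1 fragments at the same gene was tested at the denser end, where 25 members had at least 20 calls in both libraries. The test compares 2 libraries, not the marks. Zfp775, Zfp575 and Zfp280d (12% of the 25) were higher in H3K9me3 and 0 members lower, against 5.17% higher and 0.69% lower of all 1740 genes. Of 30 numbered Zfp genes without a peak 13.3% were higher, and of 367 other covered genes 10.1%, so the members were near these sets. At an unadjusted p of 0.05, 6 members passed. Zfp775 had 46.1% against 11.9% of 42 calls (adjusted p = 0.000619 by Fisher's exact test), and 57.1 against 10% at the CpGs called in both libraries. Zfp575 had 61.5% of 65 against 28.9% of 38 calls (adjusted p = 0.0368 by Fisher's exact test), and Zfp280d 13.3% of 188 against 1.67% of 120 (adjusted p = 0.00773). At shared CpGs the differences of Zfp575 (22.4 percentage points) and Zfp280d (7.21) did not pass, while that of Zfp787, at an end away from its start, did (91.4 against 54.5%). Against H3K27me3 from 250000 cells, 4 of 19 members were higher, namely Zfp775, Zfp575, Zfp280d and Zfp629, and 0 lower (5.27% higher and 0.721% lower of 1802 genes, 6 members at an unadjusted p of 0.05). The share higher was 13.3% of 30 numbered Zfp genes without a peak and 11.3% of 407 other covered genes. Zfp629 had 60% of 275 calls against 20.7% of 87 (adjusted p = 9.53e-09 by Fisher's exact test), and of the 4 only Zfp629 and Zfp775 passed at shared CpGs. With windows at listed starts, 3 of 28 members were higher than in H3K4me1 (Zfp775, Zfp280d and Zfp385b) and 0 lower, against 7.24% higher and 1.42% lower of 1617 genes. Against H3K27me3, 4 of 20 were higher (the same 3 and Zfp629) and 0 lower, against 7.07% higher and 1.4% lower of 1641 genes. Zfp575 has no listed start. Zfp385b had 56.5% of 85 calls there, against 11.6% of 69 in H3K4me1, and 0% of 24 at its denser end.

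Over the covered parts, H3K9me3 levels lay above H3K4me1 levels, without a test per gene. In 21 members with at least 20 calls of both in the covered part, the H3K9me3 level was above the H3K4me1 level in 21, by a median of 38.4 percentage points, from 10.7 at Zfp629 to 80.03 at Zfp30. The same count was not made for other covered genes, and the CpGs called in the 2 libraries were not matched. Some of the smaller differences rested on few H3K4me1 calls, 25 at Zfp629 (72%) and 29 at Zfp809 (72.4%). Summed over members these parts had 35.8% of 2534 H3K4me1 calls methylated against 82.7% in H3K9me3, and over all covered genes 34.6% of 41544 against 84.5% of 444219. In the rest of the body, 33.0% of 23626 H3K4me1 calls were methylated against 78.2% in H3K9me3, so the difference between the libraries was also present outside peaks. Over all calls on chromosomes 1 to 19 the levels were 32.6% in H3K4me1 run 2 and 81.7% in H3K9me3 run 2, so the difference is not particular to the members.

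Between peak and rest of body the members differed among themselves. Of 54 members tested, 19 were higher in the peak and 7 lower, with a median difference of 6.64 percentage points (24.9% higher and 12.3% lower of 2047 genes, median 4.14). The largest positive differences, 82.1 percentage points at Zfp33b, 76.8 at Zfp672 and 67.4 at Zfp558, came with a rest of body at 11.1, 10 and 28.8%, where calls lay at listed starts inside the body. At those starts the levels were 0% of 52 calls (3 counts would be 5.77%), 0% of 18 (3 counts would be 16.7%) and 3.57% of 56. The largest negative differences, -70.0 at Zfp869, -65.4 at Zfp280d, -45.7 at Zfp790, -41.2 at Zfp775 and -36.9 at Zfp932, were members whose start lay at the peak. With both parts outside the windows at ends and starts, an analysis chosen after seeing the data, 11 of 47 members were higher and 2 lower, with a median of 3.12 (22.4% higher and 9.75% lower of 1969 genes, median 3.90). Outside these windows the share of members called higher, 23.4%, was near the background, and the share called lower, 4.26%, was below it and rested on 2 genes.

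The 2 members that stayed lower were Zfp141 and Zfp658, 2 genes of 1 array on chromosome 7. Zfp141 (chr7:42473386-42505778) had 55.4% of 383 calls in its peak, which begins 6457 bp from the denser end, against 86.3% of 117 in the rest, a difference of -31.0 percentage points (adjusted p = 5.63e-09 by Fisher's exact test), and 47.9% in the peak in run 1. Zfp658 (chr7:43562202-43576142) had 72.3% of 235 against 93.5% of 31 calls, a difference of -21.2 (adjusted p = 0.0290 by Fisher's exact test), and 70.6% in the peak in run 1. With the peaks of the control without bisulfite the Zfp658 difference was -4.92 and did not pass. Their starts had 0% of 17 and 0% of 43 calls methylated, where 3 counts would be 17.6 and 6.98%. A further member with a partly methylated peak was Zfp553, at 53.7% of 214 calls in H3K9me3 and 16.9% of 443 in H3K4me1, but its rest of body had 7 calls. Among the higher members, Zfp13 had 94.9% of 412 calls in peaks against 68.0% of 147 (adjusted p = 1.27e-13 by Fisher's exact test), and Zfp65 85.2% of 128 against 54.5% of 22 (adjusted p = 0.00994). The other 9 differences of this kind ran from 6.22 to 28.6 percentage points.

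**Figure D5:**
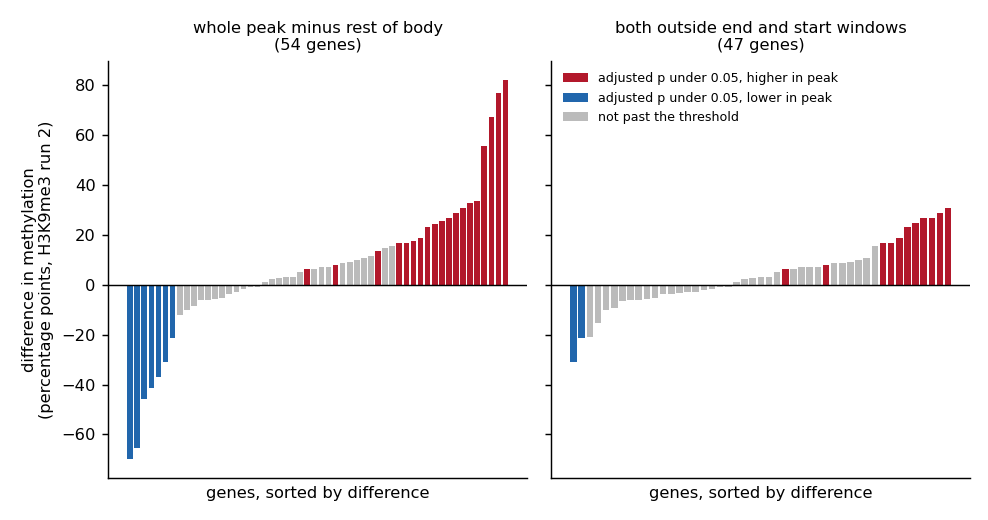
Each bar is 1 member, sorted by the difference in methylation between peak and rest of body in percentage points (y axis, H3K9me3 run 2), for whole parts (left, 54 members) and outside the windows at ends and starts (right, 47 members). Colours mark members past an adjusted p of 0.05 and grey those not past it. The long bars on the left, from -70.0 to 82.1, shrink to between -31.0 and 30.6 on the right.

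Members with a known role were few. Of 8 numbered Zfp genes listed as repressors of retroviruses or imprint regulators, 3 were covered (Zfp445, Zfp809 and Zfp932). Zfp809, which silences retroviruses with a proline tRNA primer site, had 8.12% of its body covered, 84.1% of 44 peak calls methylated and 0% of 27 calls at the start. Its 2 peaks, with 28 and 16 calls, were each found in only 1 of the 3 H3K9me3 lists. Zfp445, a regulator of imprinted genes, had 16.8% covered, 92.7% of 232 peak calls and 12.1% of 66 calls at its start, which lies inside the body. Zfp445 was higher in the peak than in the rest by 32.7 percentage points, but with the start window taken out of the rest the difference was -2.83 and did not pass. Of 14 listed for other roles, 3 were covered. Zfp462, which acts at heterochromatin, had a body of 139073 bp, and a long peak of 19982 bp inside it had 75.4% of 1080 calls methylated. Its covered parts together had 75.6% of 1183 calls against 67.7% of 350 in the rest (adjusted p = 0.0158 by Fisher's exact test), a difference of 7.86 percentage points that turned to -1.11 with the peaks of the control. Zfp592 and Zfp521 had 3.63 and 0.350% of the body covered, and Zfp521 was covered in the control list alone, with 8 peak calls. Of 24 measured genes of the H3K9 and DNA methylation machinery, Pphln1, Atf7ip and Smarcad1 had a peak, a share near that of all protein-coding genes (12.2%). Of all numbered Zfp genes, 76 of 387 had a peak, and the shares of these short lists were not tested against these values. The denser end of Trim28, the corepressor of KRAB proteins, had 0.662% of 302 H3K4me1 calls methylated.

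Some of the covered genes were neighbours. Chromosome 7 had 17 of its 93 numbered Zfp genes covered, chromosome 13 11 of 37 and chromosome 17 8 of 46, while chromosomes 1, 14, 15, 16 and 19, with 4, 5, 11, 5 and 3 such genes, had 0. Over all chromosomes the share was 76 of 387, and numbered Zfp genes lie in arrays themselves. Runs of at least 3 members with gaps of at most 500000 bp made 5 clusters with 22 of the 76 members. Each cluster was drawn from its first to its last covered member, so its outer genes were covered by construction. The shares within clusters therefore cannot be set against the 76 of 387. On chromosome 13, 6 of 20 numbered Zfp genes at 67194506 to 67827000 were covered, and 3 of 3 at 62129857 to 62579321 (Zfp808, Zfp935 and Zfp934). On chromosome 7, 6 of 7 were covered at 42473386 to 43576142 and 4 of 9 at 127233061 to 127876836. On chromosome 9, 3 of 3 were covered at 22225667 to 22307814 (Zfp809, Zfp599 and Zfp810), and Zfp809 and Zfp599 share 1 peak. This peak, the only one of Zfp599, was found in 1 of the 3 H3K9me3 lists, so this cluster rests on it. The peaks of Zfp459, Zfp729b and Zfp273, in the cluster of 6 on chromosome 13, were also each in 1 list only. Members in clusters had 83.2% methylation in peaks and 78.3% in the rest, and those outside 82.4 and 78.2%. Of the 4129 calls in the rest of clustered members, 3465 came from the cluster of 6 on chromosome 7 (78.4%). In the other clusters, with 35 to 247 calls each, the rest had 69.2 to 92.7%.

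Among members with at least 20 calls there, levels at the denser end lay far apart in 3 clusters and were low in the other 2, without a test between neighbours. So many calls were reached in only 2 of 6 and 2 of 3 members of the clusters on chromosome 13. On chromosome 7 it was 3 of 6 and 2 of 4, and on chromosome 9 3 of 3, so the other members are not described. In the cluster of 6 on chromosome 7, Zfp658 had 0% of 43 calls and Zfp936 94.3% of 105, but the listed start of Zfp936 (24.5% of 319 calls) is elsewhere. In the cluster of 4 on that chromosome, Zfp553 had 1.89% of 53 calls and Zfp629 60% of 275. On chromosome 13, Zfp273 had 2.63% of 38 and its neighbour Zfp65 36.7% of 30, and in the other cluster Zfp935 had 0% of 24 (3 counts would be 12.5%) and Zfp808 2.38% of 84. The 3 members on chromosome 9 lay between 0 and 5.33%. Summed over a cluster, peaks had between 73.7 and 91.5% of calls methylated.

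Other marks met the members' ends in part. The denser end lay at an H3K4me1 peak in 9 of 76 members (11.8%), against 21.5% of the 311 numbered Zfp genes without an H3K9me3 peak, 16.0% of other covered genes and 23.5% of all protein-coding genes. It lay at an H3K27me3 peak in 16 members (21.1%), against 15.4, 40.5 and 29.9% of the same sets. In the H3K27me3 library 8.30% of 17884 calls at the members' denser ends were methylated, close to the 7.08% of 3448 calls of H3K4me1. For numbered Zfp genes without a peak, H3K9me3 run 2 had 28.9% of 3312 calls methylated at listed starts, with a median of 4.72% over 36 genes. These values were close to the 27% and 5.34% of the members, without a test of the difference, and rested on 3312 calls over 259 genes against 4094 over 65. How reads that match several positions were placed is not given in the sources used here, which matters for duplicated genes with similar starts such as Zfp932 and Zfp808.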

How the data were processed

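CUT&Tag-BS libraries of E14 cells were analysed from a table of counts at 21908008 CpGs, which the authors deposited with methylated and all calls for 8 bisulfite libraries, and from the deposited peak lists. Per the submitters' processing notes the tools were cutadapt 1.12, Bismark 0.23.0, Bowtie2 2.3.0, HOMER 4.10.3 and bedtools 2.29.2 with build mm10; their roles, the handling of duplicate reads and of reads with several positions are not given in the sources used here. The table had 0 sample columns that were not used.

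Levels are methylated calls over all calls, summed over a part of a gene, with Wilson 95% intervals; the limit for a level of 0 is 3 counts of the total. Parts with at least 20 calls were compared by two-sided Fisher's exact test with Benjamini-Hochberg adjustment over all protein-coding genes tested and a threshold of 0.05. The procedure was run on simulated calls for peak against rest, denser end against rest and H3K9me3 against H3K4me1. Simulated calls were independent, unlike calls on 1 fragment, so the simulation cannot give the error rate in these data. Library depth was 2012835 to 37177077 CpG calls in the libraries used. Gene starts come from the RefSeq table of GRCm38.p6; protein sequences were not analysed here. Python 3.11.15, numpy 2.4.6, pandas 2.3.3, scipy 1.17.1 and matplotlib 3.10.9 were used.

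Members and lists were chosen with earlier results of these data known. Genes were named by rule: listed roles, the 6 lowest and 4 highest denser ends, the 5 largest called differences in each direction of peak against rest and of H3K9me3 against H3K4me1, the 4 most and 4 least covered members, the 3 nearest uncovered genes, and the lowest and highest ends of the 4 largest clusters. Genes described by their listed start or shown by sequence, and Zfp30, Zfp385b, Zfp553 and Zfp13, were named after their values were seen.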

Additional observations from a re-analysis of the deposited data

How the results depend on the processing

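No paired analysis was possible because no result rests on a model across libraries, and the runs of a mark were treated as repeat sequencing of 1 library. Counts of members called moved with the calls required and the depth, where fewer or more genes are tested. For peak against rest, 26 members were called, 14 with at least 50 calls, 10 at CpGs with at least 3 calls, 6 without run 2, and 13 outside the windows at ends and starts, an alternative chosen after seeing the data. For denser end against rest, 22 were called, 39 with at least 10 calls, 7 with 50, 4 at CpGs with 3 calls and 4 without run 2. For denser end against peak, 25 were called, and 41, 12, 13 and 10 under the same settings. For H3K9me3 against H3K4me1, 3 were called, 1 with 50 calls, 1 with windows of 500 bp, 6 with windows of 2000 bp, 1 at CpGs with 3 calls and 5 with both runs summed. For H3K9me3 against H3K27me3, 4 were called, and 2 with windows of 500 bp, 2 without run 2 and 2 at shared CpGs. With 10% of the body required, 37 genes were members, and a shorter allowed gap left 3 clusters.

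The peak level of 82.7% was 87.0% as the median of genes and 80.9% without run 2. The denser end level of 31.2% was 12.5% as a median, 34.7% at CpGs with 3 calls, 23.8% in windows of 500 bp and 29.0% without run 2. The rest level of 78.2% was 83.2% as a median, 76.7% at CpGs with 3 calls, 80.4% for members that overlap control peaks, 77.4% with windows of 500 bp and 79.4% without run 2. Leaving out the member with the most calls, chosen after seeing the data, moved none of these 3 levels by more than counting error.

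For single genes, 8 differences changed sign. Peak minus rest became -2.83 percentage points at Zfp445 with listed starts and -2.83 outside both windows, and -1.11 at Zfp462 with control peaks. With listed starts, end minus rest became -67.7 at Zfp787 and -60.0 at Zfp936, and end minus peak -46.6 at Zfp790. With windows of 500 bp, end minus peak became 8.42 at Zfp629 and 4.54 at Zfp787, and the cause was not tested. Of the other values of named genes, 669 kept direction and call, 25 lost and 12 gained the call. Counts of protein fingers were not run. Depth limits the ends most, where 14 members had no call.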
